A study of Mus musculus with 8 samples.

Results

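Conventional CD4 T cells that carried a NIK transgene (NIKtg Tconv) were set against regulatory T cells without it (WT Treg), to describe which genes of normal Treg the transgenic Tconv shared and which separated them. The comparison uses 4 of the 8 arrays of the series, the 2 titled as NIKtg CD4 Tconv and the 2 titled as WT Treg, and covers all 7926 named genes that were detected on at least 2 arrays. The 2 arrays of WT Tconv are given beside them, and the 2 arrays of NIKtg Treg entered the normalization, the detection filter and the estimate of the spread. The cells were taken from C57BL/6 chimeras with mixed marrow, in which lethally irradiated B6.CD45.1 recipients (1200 rads in a split dose) had been rebuilt with marrow of both donors more than 8 weeks before the sort. NIKtg Tconv came from the NIKtg/CD4Cre/foxp3RFP donor and were gated as RFP-Thy1.1-CD4+GFP+ cells. WT Treg came from the B6.Thy1.1/Foxp3RFP donor and were gated as RFP+Thy1.1+CD4+GFP- cells. WT Tconv came from that same donor and were gated as RFP-Thy1.1+CD4+GFP- cells. Both donors thus carried the red Foxp3 reporter, while the Map3k14 insertion at the ROSA26 locus, the Cre driven by the CD4 promoter, GFP and the other Thy1 allele went together in NIKtg cells. NIKtg Tconv and WT Treg differed in this genotype and in the subset at once, and WT Tconv, which shares the subset of the one and the donor of the other, is given for that reason. No group carried Cre or GFP without NIK, so these parts of the genotype cannot be told apart. The labels do not say that the 2 arrays of a group came from separate animals, so p-values rest on the scatter of these samples alone, and that scatter may be technical.

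Treg are CD4 T cells set aside by the transcription factor Foxp3; they restrain other lymphocytes through surface molecules such as CTLA-4, through uptake of IL-2 and through secreted mediators such as IL-10. NIK, the kinase encoded by Map3k14, starts the noncanonical NF-kB pathway, in which the precursor encoded by Nfkb2 is trimmed to a subunit that pairs with RelB. In resting cells a complex of TRAF and cIAP proteins keeps NIK low, and receptors of the TNF superfamily such as OX40 and GITR, which Treg carry at high levels, release it.

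Promoter stretches of 4 genes of the NF-kB pathway are shown because these genes cover the range of results in the pathway, 1 higher in NIKtg Tconv, 1 lower and 2 that did not pass. Each stretch ends no later than the base before the start, while the search for the motif also covered bases after it. The sequences are RefSeq promoters of GRCm38.p6 read on the gene's strand, at chr19:46304673-46304732 for Nfkb2 (plus strand), chr12:55492648-55492701 for Nfkbia (minus strand), chr10:19015411-19015447 for Tnfaip3 (minus strand) and chr11:54962963-54963022 for Tnip1 (minus strand). Capitals mark a match, on either strand, to a kB motif that was searched as GGG, any 2 bases, TT, any base and CC.
Nfkb2: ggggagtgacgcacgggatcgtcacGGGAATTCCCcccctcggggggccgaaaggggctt
Nfkbia: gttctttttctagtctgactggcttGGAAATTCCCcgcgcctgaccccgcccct
Tnfaip3: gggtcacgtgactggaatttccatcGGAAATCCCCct
Tnip1: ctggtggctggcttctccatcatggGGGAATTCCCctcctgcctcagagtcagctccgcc
Such a match lay within 250 bases before to 50 bases after a listed start in 10 of the 21 NF-kB genes that had a promoter sequence (47.6%), and in 421 of all 6550 tested genes that had one (6.43%). Nfkb2 had 3 further matches near its listed starts, and 2 of those overlapped each other. The match is a description of these letters and no evidence of binding.

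Values are normalized log2 intensities of 1 probe per gene, given array by array with replicate 1 first. Differences are NIKtg Tconv minus WT Treg on the log2 scale, ± the standard error of the limma fit with 2 arrays per group, and a gene was called at an adjusted p under 0.05. Of the 7926 genes, 742 were called higher in NIKtg Tconv (9.36%) and 883 lower (11.1%), 1625 in all (20.5%). The calls were 45.7% higher and the rest lower, a split that depended on scaling, since median centring over all probes shifted the median difference to 0.21 and made 65.6% of 1552 calls higher. At least 2-fold apart were 606 called genes (7.65%), of which 225 were higher (2.84% of all genes) and 381 were lower (4.81%). For 6526 genes (82.3%) the 95% interval of the difference lay within 2-fold, which is the description of likeness used here, since a p above the threshold does not show that levels were alike. Both NIKtg Tconv arrays lay above both WT Treg arrays in 32.2% of genes and below both in 32.4%, so arrays that do not overlap are common in this comparison. Between 9826 and 10794 of 25697 probes were detected per array, the mean unnormalized intensity was 461 to 777, and probe values correlated at r = 0.9444 to 0.9532 between NIKtg Tconv and WT Treg arrays, against 0.9889 to 0.9942 within a group. Counts of calls without 1 of the 4 arrays were lower, down to 838 without NIKtg Tconv 1 and 890 without WT Treg 2.

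Foxp3, the defining factor of Treg, measured 6.07 and 7.01 on the NIKtg Tconv arrays, against 13.48 and 13.57 on the WT Treg arrays and 8.05 and 8.82 on the WT Tconv arrays. The difference of -6.98 ± 0.33 (adjusted p 1.8e-05) was the most negative of all called genes, and the groups match their sort gates in this gene, although 1 of its other 2 probes gave a difference of only -2.06. Map3k14 measured 9.60 and 9.59 on the NIKtg Tconv arrays, against 9.61 and 9.63 on the WT Treg arrays, a difference of -0.02 ± 0.11 (adjusted p 0.93). The sources used here do not say whether its single probe lies in the transcript of the transgene, so this value does not check the label. Thy1, whose alleles differ between the donors, measured 14.28 and 14.32 on the NIKtg Tconv arrays and 13.81 and 14.12 on the WT Treg arrays (0.33 ± 0.14, adjusted p 0.14). Cd4 measured 8.01 and 8.24 on the NIKtg Tconv arrays, against 7.38 and 7.34 on the WT Treg arrays (0.76 ± 0.22, adjusted p 0.0486), a call that was lost without any 1 of these 4 arrays and without a detection filter.

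The lists of activation genes split by role, as the plot of calls by list shows. Genes of Treg identity were lower in NIKtg Tconv nearly throughout, and granule, killer receptor and proliferation genes were called in the higher direction only. Genes of the NF-kB pathway were called about as often as all genes. These lists were chosen with earlier results of these data known, and each count below is read against the 9.36% of all genes called higher and the 11.1% called lower.

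**Figure D1:**
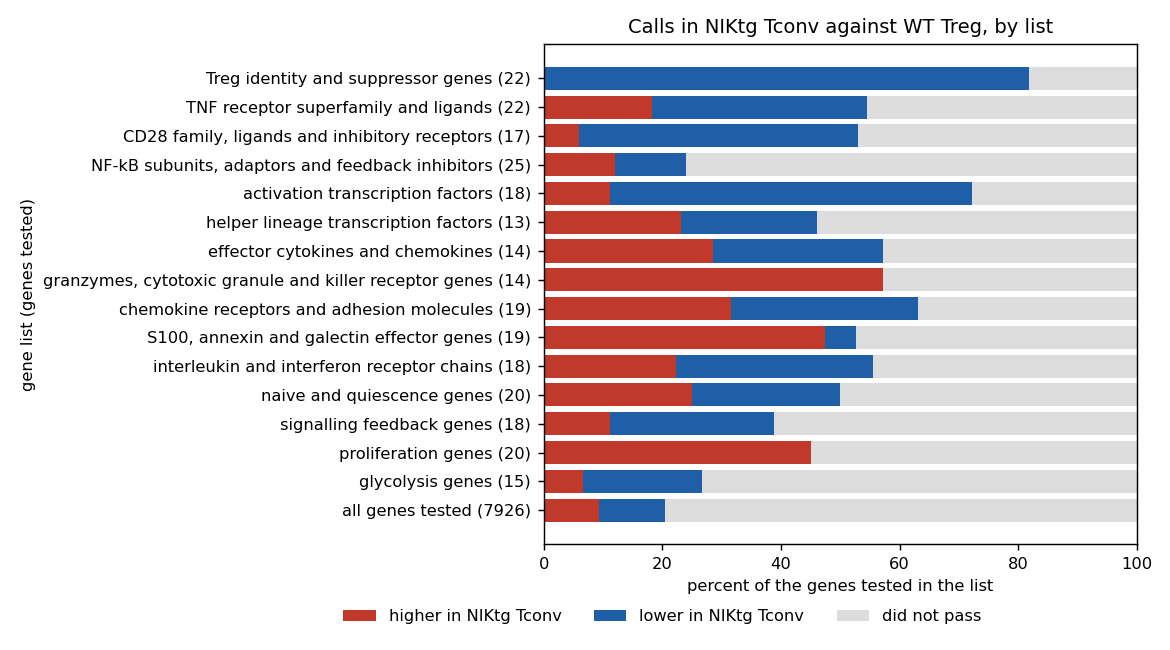
Calls in NIKtg Tconv against WT Treg for 15 activation gene lists and for all genes tested. Bars run along the x axis as the percent of the genes tested in a list (number tested in brackets on the y axis), red for genes called higher in NIKtg Tconv, blue for genes called lower and grey for genes that did not pass. Of the 22 Treg identity and suppressor genes 18 were lower and 0 higher, while of the 14 granzyme, granule and killer receptor genes 8 were higher and 0 lower.

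Of the 22 tested genes of Treg identity and suppressor function, 18 were lower in NIKtg Tconv (against 11.1% of all genes) and 0 were higher, with a median difference of -3.29 against 0.00 over all genes. All 18 were more than 2-fold lower, and their number was 18 without any 1 of the 4 arrays. Nrp1, a neuropilin found on Treg that arise in the thymus, measured 6.56 and 7.37 on the NIKtg Tconv arrays, against 12.95 and 12.93 on the WT Treg arrays (-5.97 ± 0.25, adjusted p 1.6e-05). Il2ra, the alpha chain of the IL-2 receptor, measured 5.29 and 5.73 on the NIKtg Tconv arrays, where 1 of the 2 was detected, against 10.93 and 11.32 on the WT Treg arrays (-5.62 ± 0.36, adjusted p 5.2e-05). In both genes the NIKtg Tconv arrays also lay below those of WT Tconv, which measured 9.98 and 9.73 for Nrp1 and 6.80 and 7.99 for Il2ra.

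Ikzf2, which encodes the transcription factor Helios, measured 6.62 and 6.78 on the NIKtg Tconv arrays, against 10.60 and 10.29 on the WT Treg arrays (-3.75 ± 0.18, adjusted p 1.8e-05). Itgae, the integrin chain CD103, measured 6.61 and 6.72 on the NIKtg Tconv arrays, against 11.89 and 11.85 on the WT Treg arrays (-5.21 ± 0.23, adjusted p 1.8e-05), and its other 5 kept probes gave differences of -2.89 to -5.36. Gpr83, a G protein-coupled receptor of Treg, measured 6.18 and 7.19 on the NIKtg Tconv arrays, against 12.18 and 12.00 on the WT Treg arrays (-5.41 ± 0.33). For each of these the lowest WT Treg array lay more than 3 log2 units above the highest NIKtg Tconv array. Izumo1r, which encodes folate receptor 4, measured 5.99 and 6.90 on the NIKtg Tconv arrays, against 10.51 and 10.67 on the WT Treg arrays (-4.15 ± 0.26). Ctla4, the inhibitory receptor through which Treg strip costimulatory ligands, measured 10.30 and 10.26 on the NIKtg Tconv arrays, against 13.14 and 13.31 on the WT Treg arrays and 10.16 and 9.88 on the WT Tconv arrays (-2.94 ± 0.15, adjusted p 1.9e-05). Ctla4 in NIKtg Tconv thus lay near its level in WT Tconv, from which it differed by 0.26 (adjusted p 0.22).

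The 4 genes of the list that did not pass were Il10, Tgfb1, Klrg1 and Lag3, the last pair named only because the others of the list all passed. Il10, the suppressive cytokine, measured 7.50 and 7.13 on the NIKtg Tconv arrays, against 7.61 and 6.91 on the WT Treg arrays and 5.76 and 4.86 on the WT Tconv arrays, a difference of 0.06 with a 95% interval of -0.71 to 0.83. The NIKtg Tconv and WT Treg arrays overlapped in this gene, and both lay above WT Tconv. Tgfb1, which encodes the cytokine TGF-beta, measured 7.97 and 8.04 on the NIKtg Tconv arrays and 8.26 and 8.34 on the WT Treg arrays (-0.29 ± 0.10, adjusted p 0.07). Klrg1 and Lag3 spread widely between arrays of 1 group, and their intervals ran from -1.85 to 1.36 and from -2.21 to 0.88.

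**Figure D2:**
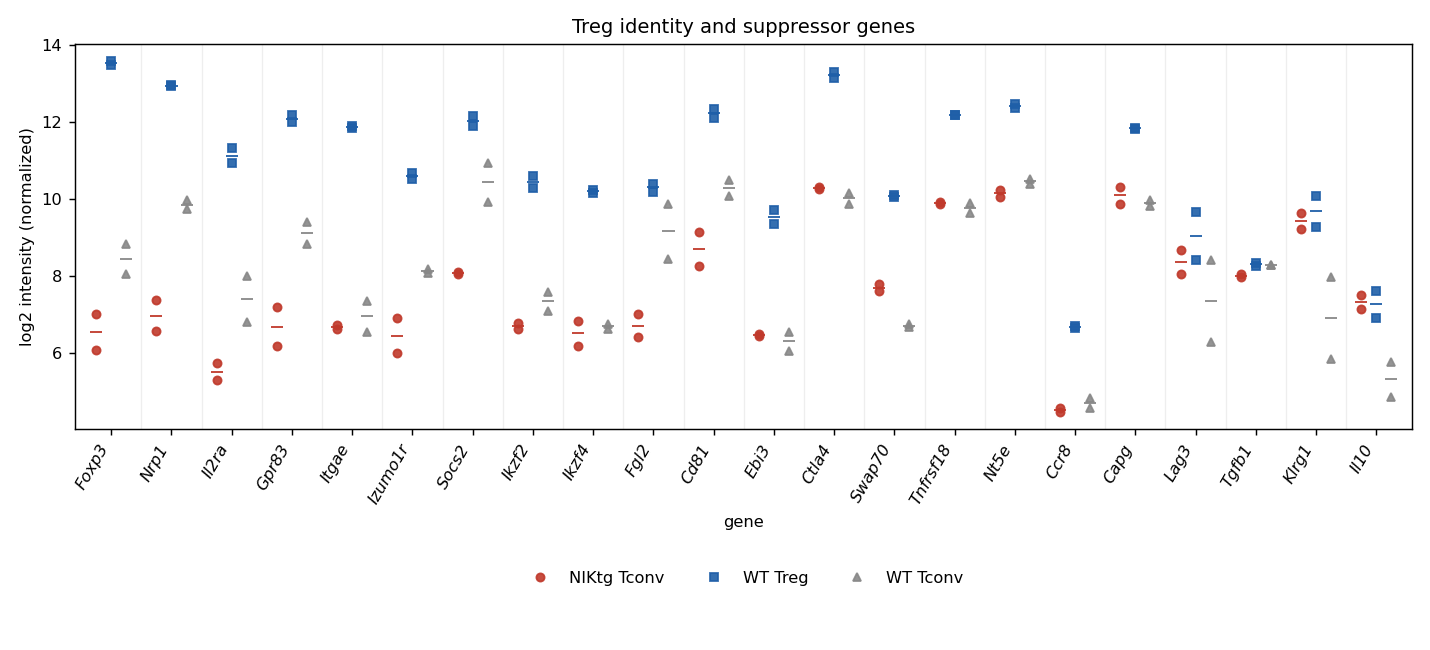
Normalized log2 intensity (y axis) of the 22 tested Treg identity and suppressor genes (x axis, ordered by the difference between NIKtg Tconv and WT Treg). Each point is 1 of 2 arrays per group, with NIKtg Tconv in red circles, WT Treg in blue squares and WT Tconv in grey triangles, and short lines mark group means. The NIKtg Tconv arrays sit below the WT Treg arrays from Foxp3 to Capg and beside them in Il10.

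Inhibitors of cytokine signalling, which IL-2 is known to induce, were lower in NIKtg Tconv, as was the IL-2 receptor chain Il2ra. A link between these was not tested. Socs2, a suppressor of cytokine signalling, measured 8.11 and 8.05 on the NIKtg Tconv arrays, against 11.90 and 12.16 on the WT Treg arrays and 9.93 and 10.92 on the WT Tconv arrays (-3.95 ± 0.28, adjusted p 9.3e-05). Cish, a related inhibitor, measured 8.69 and 8.78 on the NIKtg Tconv arrays, against 12.34 and 12.68 on the WT Treg arrays and 9.74 and 10.21 on the WT Tconv arrays (-3.77 ± 0.18, adjusted p 1.8e-05). Socs1, of the same family, measured 6.63 and 6.86 on the NIKtg Tconv arrays, against 7.84 and 8.13 on the WT Treg arrays (-1.24 ± 0.16, adjusted p 0.0015). In Socs2 and Cish both NIKtg Tconv arrays lay below all arrays of WT Treg and of WT Tconv. Il2rb, the beta chain of that receptor, measured 9.48 and 9.28 on the NIKtg Tconv arrays, against 10.01 and 10.29 on the WT Treg arrays and 8.59 and 8.93 on the WT Tconv arrays (-0.76 ± 0.16, adjusted p 0.0132). The Il2rb call was lost without NIKtg Tconv 2, without WT Treg 2 and after median centring, at adjusted p-values up to 0.101.

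The signalling feedback list as a whole held 2 higher and 5 lower genes among 18 tested. The interval lay within 2-fold for 11, against 82.3% of all genes. Higher in NIKtg Tconv were Ptpn22 (0.58 ± 0.13, adjusted p 0.0192), a phosphatase that dampens T cell receptor signals, and Lax1 (0.65 ± 0.13, adjusted p 0.0119), an adaptor that also dampens them, and both calls were lost without any 1 of the 4 arrays. Dusp1, a phosphatase of MAP kinases, measured 11.73 and 11.86 on the NIKtg Tconv arrays, against 12.40 and 12.71 on the WT Treg arrays (-0.76 ± 0.16, adjusted p 0.0124), a call lost without NIKtg Tconv 1, without WT Treg 2 and after median centring (adjusted p up to 0.0884). Dusp4, of the same family, was alike in both groups at 6.71 and 6.62 on the NIKtg Tconv arrays and 6.70 and 7.00 on the WT Treg arrays, against 4.71 and 5.07 on the WT Tconv arrays. Without NIKtg Tconv 1, and likewise without WT Treg 2, 3 genes of the list were lower.

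Of the 25 tested genes of the NF-kB pathway, 3 were higher in NIKtg Tconv and 3 lower, a share near the 20.5% of all genes. The interval lay within 2-fold for 22, near the 82.3% of all genes, with a median difference of -0.02 and a median size of 0.10 against 0.21 over all genes. Nfkb2, the precursor cut in the noncanonical pathway, measured 9.21 and 9.23 on the NIKtg Tconv arrays, against 8.49 and 8.31 on the WT Treg arrays and 7.83 and 7.70 on the WT Tconv arrays (0.83 ± 0.11, adjusted p 0.0019). Traf1, an NF-kB target that binds TNF receptors, measured 11.78 and 11.61 on the NIKtg Tconv arrays, against 11.09 and 11.24 on the WT Treg arrays and 10.10 and 10.23 on the WT Tconv arrays (0.53 ± 0.12, adjusted p 0.0161). In both genes the NIKtg Tconv arrays lay above the WT Treg arrays, as in 32.2% of all genes, and the WT Treg arrays above those of WT Tconv. Both genes were named because they were called higher, so their order is no further finding. Traf2, a member of the complex that holds NIK low, measured 8.02 and 8.01 on the NIKtg Tconv arrays, against 7.62 and 7.58 on the WT Treg arrays and 7.62 and 7.59 on the WT Tconv arrays (0.42 ± 0.10, adjusted p 0.0265). Without NIKtg Tconv 1, and likewise without WT Treg 1, only Nfkb2 of the 3 remained called.

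Lower in NIKtg Tconv were 2 members of the IkB family and an adaptor. Nfkbiz, an inducible nuclear member of the IkB family, measured 9.41 and 9.83 on the NIKtg Tconv arrays, against 10.93 and 11.17 on the WT Treg arrays and 10.22 and 10.39 on the WT Tconv arrays (-1.43 ± 0.16, adjusted p 0.00081). Nfkbia, which encodes the classical inhibitor IkB-alpha and whose promoter stretch is printed above, measured 10.91 and 10.76 on the NIKtg Tconv arrays, against 11.58 and 11.48 on the WT Treg arrays and 10.67 and 10.46 on the WT Tconv arrays (-0.70 ± 0.12, adjusted p 0.00482). Traf6, an adaptor of the canonical pathway, measured 8.91 and 8.89 on the NIKtg Tconv arrays, against 9.57 and 9.60 on the WT Treg arrays (-0.68 ± 0.12, adjusted p 0.00557). The calls of Nfkbia and Traf6 were lost after median centring, at adjusted p-values of 0.109 and 0.136.

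Other members did not pass. Tnfaip3, the ubiquitin-editing inhibitor A20, measured 11.09 and 10.79 on the NIKtg Tconv arrays, against 10.96 and 10.87 on the WT Treg arrays and 9.88 and 10.13 on the WT Tconv arrays, a difference of 0.02 with a 95% interval of -0.31 to 0.35. Tnip1, a partner of A20, measured 11.81 and 11.87 on the NIKtg Tconv arrays, against 11.69 and 11.87 on the WT Treg arrays and 11.27 and 11.29 on the WT Tconv arrays (interval -0.20 to 0.32). In both genes the NIKtg Tconv and WT Treg arrays overlapped and lay above WT Tconv, although the other Tnip1 probes gave differences of -0.04, 0.39 and 0.71. Rela, the main canonical subunit, measured 11.60 and 11.50 on the NIKtg Tconv arrays, 11.54 and 11.47 on the WT Treg arrays and 11.58 and 11.51 on the WT Tconv arrays. Cyld and Birc2, a deubiquitinase and the ubiquitin ligase cIAP1, likewise had intervals within 2-fold, from -0.13 to 0.34 and from -0.33 to 0.20, with differences of -0.11 and 0.65 at the other Birc2 probes.

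**Figure D3:**
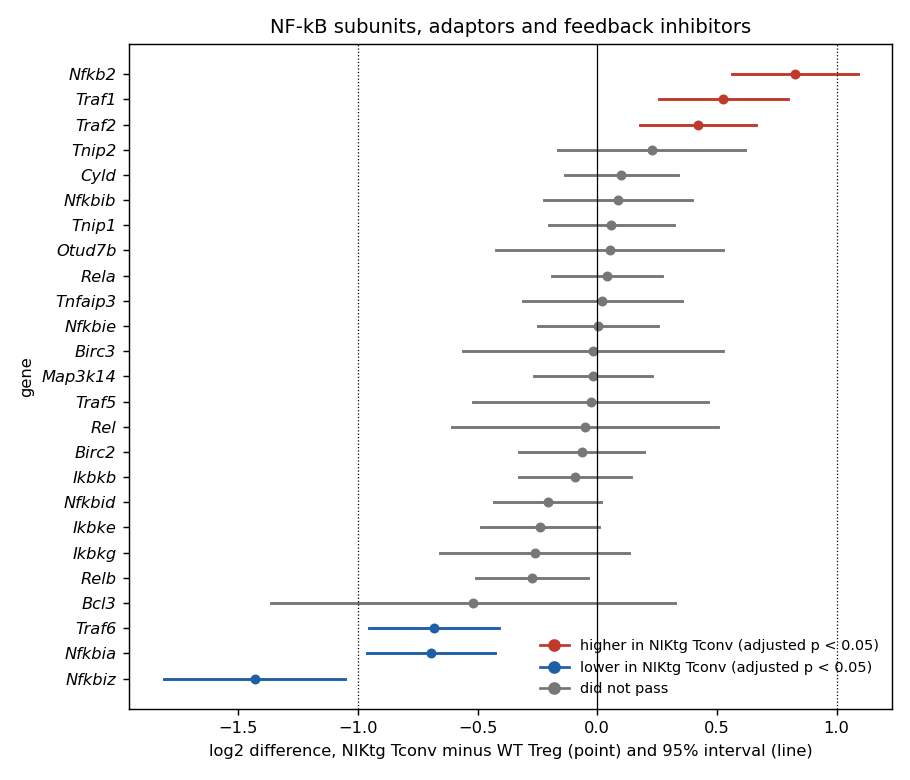
Log2 difference of NIKtg Tconv minus WT Treg (x axis) for the 25 tested NF-kB subunits, adaptors and feedback inhibitors (y axis). Points are fitted differences from 2 arrays per group, lines are 95% intervals and dotted lines mark 2-fold, with red for genes called higher, blue for genes called lower and grey for genes that did not pass. The intervals of Nfkb2 and Bcl3 cross a dotted line and that of Nfkbiz lies wholly beyond one, while those of the other 22 genes lie between the lines.

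Receptors and ligands of the TNF superfamily were divided. Of 22 tested, 4 were higher in NIKtg Tconv and 8 lower. The interval lay within 2-fold for 11, against 82.3% of all genes. The receptors that mark Treg were lower in NIKtg Tconv. Tnfrsf4, the costimulatory receptor OX40, measured 10.39 and 10.05 on the NIKtg Tconv arrays, against 13.16 and 13.15 on the WT Treg arrays and 10.08 and 9.87 on the WT Tconv arrays (-2.93 ± 0.14, adjusted p 1.8e-05). Tnfrsf18, which encodes GITR, measured 9.87 and 9.91 on the NIKtg Tconv arrays, against 12.17 and 12.18 on the WT Treg arrays and 9.64 and 9.90 on the WT Tconv arrays (-2.29 ± 0.18, adjusted p 0.00015). Tnfrsf9, the receptor CD137, measured 7.85 and 7.74 on the NIKtg Tconv arrays, against 9.57 and 9.66 on the WT Treg arrays and 6.49 and 6.80 on the WT Tconv arrays (-1.82 ± 0.18, adjusted p 0.0004). NIKtg Tconv stood with WT Tconv in Tnfrsf4 and Tnfrsf18, and between WT Tconv and WT Treg in Tnfrsf9. Cd27, another costimulatory receptor, measured 13.29 and 13.24 on the NIKtg Tconv arrays and 13.85 and 13.87 on the WT Treg arrays (-0.59 ± 0.09, adjusted p 0.00408), a call lost after median centring (adjusted p 0.196).

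Ligands differed among themselves, with some higher in NIKtg Tconv, some lower and some close. Fasl, the death ligand, measured 10.42 and 10.40 on the NIKtg Tconv arrays, against 7.39 and 7.64 on the WT Treg arrays and 8.24 and 9.40 on the WT Tconv arrays (2.90 ± 0.35, adjusted p 0.001). Tnfsf14, which encodes LIGHT, measured 9.83 and 9.86 on the NIKtg Tconv arrays, against 8.27 and 8.26 on the WT Treg arrays (1.59 ± 0.25, adjusted p 0.0038). Tnfsf4, the ligand of OX40, measured 7.00 and 6.25 on the NIKtg Tconv arrays and was detected on neither WT Treg array, where its signal was 4.69 and 4.52. It was thus at least 2.05-fold higher in NIKtg Tconv (adjusted p 0.00063). Such a bound sets the mean of the brighter group against the lowest signal of a detected probe, or the probe's own signal where that was higher, and covers detection only. It holds for the main background correction and scaling, and leaves out the scatter between arrays. In the alternatives described below some log2 differences were smaller, down to 5.14 from 6.97 for Gzmk and 2.59 from 4.18 for Ccl3.

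Tnfsf11, which encodes RANKL, measured 9.61 on both NIKtg Tconv arrays, against 9.34 and 9.40 on the WT Treg arrays and 8.13 and 8.19 on the WT Tconv arrays (0.24, interval -0.12 to 0.60). Ltb, the lymphotoxin chain whose receptor signals through NIK, measured 12.83 and 13.05 on the NIKtg Tconv arrays, against 12.58 and 12.82 on the WT Treg arrays and 11.74 and 12.16 on the WT Tconv arrays (0.24, interval -0.21 to 0.69). Both ligands were named by the rule that asked for closeness of NIKtg Tconv and WT Treg and for a level above WT Tconv, so neither is a finding. Fas, the death receptor, measured 10.84 and 10.62 on the NIKtg Tconv arrays, against 10.22 and 10.34 on the WT Treg arrays and 9.70 and 9.66 on the WT Tconv arrays (0.45 ± 0.12, adjusted p 0.0318). The Fas call was lost without NIKtg Tconv 1 or either WT Treg array, without a detection filter and for the mean of its kept probes. Tnf and Lta, a pair of secreted ligands, were lower in NIKtg Tconv by 0.84 ± 0.17 and 0.98 ± 0.20 on the log2 scale (adjusted p 0.0106 and 0.0130), and both calls were lost without NIKtg Tconv 1 and without WT Treg 2, that of Tnf also without NIKtg Tconv 2 and after median centring. The count of lower genes in this list was 4 without NIKtg Tconv 1, and 5 each without NIKtg Tconv 2 and without WT Treg 2.

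In the CD28 family with its ligands and other inhibitory receptors, 1 of 17 tested genes was higher in NIKtg Tconv and 8 were lower. The interval lay within 2-fold for 7, against 82.3% of all genes. Havcr2, the inhibitory receptor TIM-3, measured 8.37 and 7.80 on the NIKtg Tconv arrays and was detected on neither WT Treg array, at 4.97 and 5.02, nor on WT Tconv, at 4.81 and 4.61. It was at least 5.62-fold higher in NIKtg Tconv than in WT Treg (adjusted p 3.8e-05). Icos, a costimulatory receptor, measured 9.71 and 9.67 on the NIKtg Tconv arrays, against 10.95 and 10.91 on the WT Treg arrays and 10.42 and 10.75 on the WT Tconv arrays (-1.24 ± 0.14, adjusted p 0.00072). In Icos both NIKtg Tconv arrays lay below all arrays of WT Treg and WT Tconv, and in Havcr2 they lay above all of them. Cd28 measured 12.58 and 12.60 on the NIKtg Tconv arrays and 12.23 and 12.19 on the WT Treg arrays, with an interval of 0.04 to 0.71, and its other 2 probes gave 0.93 and 0.72. Pdcd1, which encodes PD-1, measured 6.08 and 6.18 on the NIKtg Tconv arrays, against 6.07 and 6.22 on the WT Treg arrays and 5.19 and 5.68 on the WT Tconv arrays (interval -0.48 to 0.44).

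Among the ligands, Cd80 was alike in NIKtg Tconv and WT Treg, as the rule that named it asked. Cd86 in NIKtg Tconv lay between WT Tconv and WT Treg. Cd80 measured 6.45 and 6.40 on the NIKtg Tconv arrays, against 6.31 and 6.34 on the WT Treg arrays and 4.94 and 4.71 on the WT Tconv arrays (0.10, interval -0.17 to 0.36). Cd86 measured 8.77 and 8.40 on the NIKtg Tconv arrays, against 10.37 and 10.85 on the WT Treg arrays and 7.53 and 7.67 on the WT Tconv arrays (-2.03 ± 0.22, adjusted p 0.00063). Cd83, a molecule of activated Treg and of antigen-presenting cells, measured 6.52 and 6.69 on the NIKtg Tconv arrays, against 11.32 and 11.27 on the WT Treg arrays and 7.18 and 6.46 on the WT Tconv arrays (-4.69 ± 0.24, adjusted p 1.9e-05). Since antigen-presenting cells also carry these molecules, the markers of such cells are given with them. Of 10 tested myeloid and dendritic cell markers 6 were lower in NIKtg Tconv and 0 higher. Their summed intensity was 702 to 755 on the NIKtg Tconv arrays, 1362.5 to 1388.4 on the WT Treg arrays and 1100.2 to 1249.9 on the WT Tconv arrays. C1qa, C1qb, C1qc, Adgre1 and Tyrobp were detected on neither NIKtg Tconv array and on both WT Treg arrays.

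Of 5 tested B cell markers 1 was higher in NIKtg Tconv and 2 were lower. Their summed intensity was 614 to 731 on the NIKtg Tconv arrays, 1040 to 1115 on the WT Treg arrays and 314.5 to 402.2 on the WT Tconv arrays. Cd79b measured 5.60 and 5.78 on the NIKtg Tconv arrays, against 9.06 and 8.96 on the WT Treg arrays (-3.31), Fcmr was at least 6.22-fold lower in NIKtg Tconv, and Cd22 was higher in NIKtg Tconv (1.88, adjusted p 0.0069, with 0.0619 without NIKtg Tconv 1). The other lineage genes Cd79a, Ms4a1, Pax5, Blk and Ebf1 did not reach detection on 2 arrays of the series. Of 8 MHC class II genes, 1 was higher in NIKtg Tconv and 2 were lower, and their summed intensity was 4331 to 4367 on the NIKtg Tconv arrays, 5005 to 5614 on the WT Treg arrays and 2557.5 to 2811.7 on the WT Tconv arrays. H2-Aa, H2-Ab1, H2-Eb1 and Cd74 had differences of -0.09, -0.05, 0.12 and -0.25 between NIKtg Tconv and WT Treg, each with an interval within 2-fold. The part of other cells in the differences of Cd83 and Cd86 was not tested, and in bulk arrays fewer cells of a type and less RNA per cell cannot be told apart. Of 3 erythroid and platelet markers 0 passed, and of 8 T cell markers 2 were higher and 2 lower, all 4 of them lost when single arrays were left out.

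Transcription factors of activation were lower in NIKtg Tconv more often than higher, with 11 lower and 2 higher of 18 tested and a median difference of -0.63. Nfil3, a basic leucine zipper factor, measured 6.34 and 6.04 on the NIKtg Tconv arrays, against 9.57 and 9.10 on the WT Treg arrays and 7.38 and 6.62 on the WT Tconv arrays (-3.15 ± 0.26, adjusted p 0.00016). Irf4, which is needed for effector Treg, measured 8.26 and 8.12 on the NIKtg Tconv arrays, against 9.50 and 9.56 on the WT Treg arrays and 8.16 and 7.56 on the WT Tconv arrays (-1.34 ± 0.18, adjusted p 0.002). Maf was detected on neither NIKtg Tconv array, at 4.87 and 4.71, and measured 6.57 and 6.45 on the WT Treg arrays, at least 1.95-fold lower in NIKtg Tconv (adjusted p 0.00053). Nfil3, Irf4 and Maf kept their calls in every alternative in which they were tested. Crem, a regulator of cAMP responses, measured 6.20 and 5.87 on the NIKtg Tconv arrays, against 7.21 and 6.89 on the WT Treg arrays (-1.01 ± 0.15, adjusted p 0.0032). The count of lower factors depended on scaling and on single arrays, with 5 after median centring, 5 without NIKtg Tconv 1 and 6 without WT Treg 2.

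Batf, the partner of IRF4 in AP-1 complexes, was alike in NIKtg Tconv and WT Treg, as the rule that named it asked. It measured 10.86 and 10.41 on the NIKtg Tconv arrays, against 10.42 and 10.20 on the WT Treg arrays and 8.84 and 8.78 on the WT Tconv arrays (0.33, interval -0.08 to 0.73). Bhlhe40, a factor of cytokine production, measured 11.98 and 11.68 on the NIKtg Tconv arrays, against 10.99 and 10.56 on the WT Treg arrays and 9.27 and 10.14 on the WT Tconv arrays (1.06 ± 0.28, adjusted p 0.0336). Nr4a2, an orphan nuclear receptor induced by antigen receptor signals, measured 7.25 and 6.99 on the NIKtg Tconv arrays, against 5.93 and 6.29 on the WT Treg arrays and 4.62 and 4.87 on the WT Tconv arrays (1.01 ± 0.24, adjusted p 0.0225). WT Treg lay between NIKtg Tconv and WT Tconv in Bhlhe40 and Nr4a2. The Bhlhe40 call was lost without any 1 of the 4 arrays, and the Nr4a2 call without either NIKtg Tconv array or WT Treg 1. That of Bhlhe40 was also lost without a detection filter, with the replicate number as a block and with a trended, robust fit.

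Of 13 factors of helper lineages, 3 were higher and 3 lower. Eomes, the T-box factor of cytotoxic and memory T cells, measured 12.61 and 12.38 on the NIKtg Tconv arrays, against 6.08 and 6.01 on the WT Treg arrays and 7.22 and 6.56 on the WT Tconv arrays (6.45 ± 0.21, an 87.3-fold difference, adjusted p 7.9e-06). No other list gene with a level detected on all 4 arrays was so far above WT Treg. Id2, a helix-loop-helix inhibitor, measured 11.82 and 11.72 on the NIKtg Tconv arrays, against 9.99 and 10.23 on the WT Treg arrays and 11.60 and 12.41 on the WT Tconv arrays (1.66 ± 0.29, adjusted p 0.0058). Id3, its relative, was alike at 8.62 and 9.06 on the NIKtg Tconv arrays and 9.09 and 8.96 on the WT Treg arrays, against 7.83 and 8.07 on the WT Tconv arrays. NIKtg Tconv thus overlapped with WT Treg in Id3 and lay within the range of WT Tconv in Id2. Gata3, the factor of Th2 cells, measured 9.52 and 9.90 on the NIKtg Tconv arrays, against 11.09 and 11.35 on the WT Treg arrays and 10.54 and 10.72 on the WT Tconv arrays (-1.51 ± 0.20, adjusted p 0.0017). Zbtb7b, which sets the CD4 fate, was detected on 1 of 2 NIKtg Tconv arrays at 5.29 and 5.69, against 6.49 and 6.42 on the WT Treg arrays and 6.43 and 6.47 on the WT Tconv arrays (-0.96 ± 0.15, adjusted p 0.0041).

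**Figure D4:**
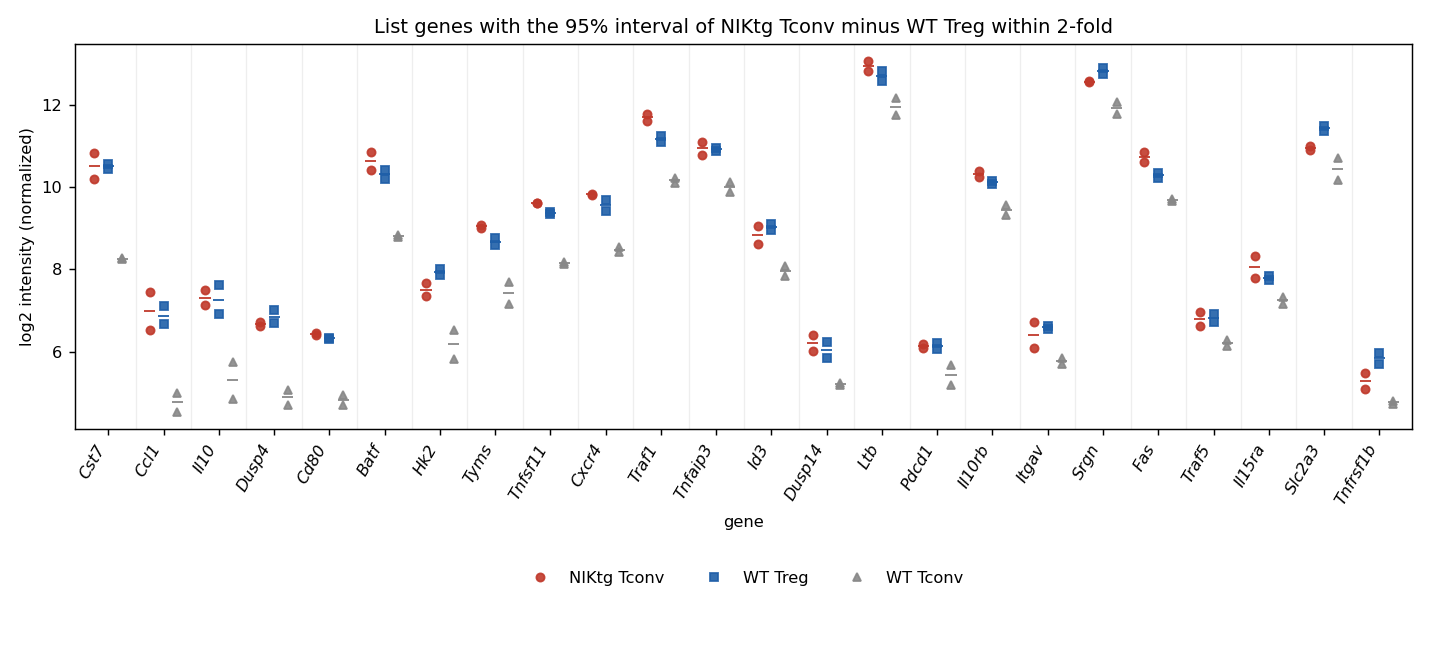
Normalized log2 intensity (y axis) of 24 list genes (x axis) whose 95% interval of NIKtg Tconv minus WT Treg lay within 2-fold and whose means in both groups lay above WT Tconv, the 24 farthest above it out of up to 4 per list, ordered by the smaller of the 2 distances from WT Tconv. Each point is 1 of 2 arrays per group, with NIKtg Tconv in red circles, WT Treg in blue squares and WT Tconv in grey triangles, and short lines mark group means. Red and blue points lie above the grey ones, with the widest gap in Cst7, at 10.82 and 10.19 in NIKtg Tconv, 10.57 and 10.45 in WT Treg and 8.25 and 8.27 in WT Tconv. Traf1 and Fas are shown although they were called higher in NIKtg Tconv. Tnfrsf1b was detected on both WT Treg arrays (5.97 and 5.71) but on no NIKtg Tconv (5.09 and 5.47) or WT Tconv array.

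The plot of genes with an interval within 2-fold shows the 24 that lay farthest above WT Tconv, taken from up to 4 per list. The rule asked for likeness and for a level above WT Tconv, so neither is a finding, and the differences from WT Tconv share arrays and are given side by side. Cst7, which encodes the granule protease inhibitor cystatin F, lay 2.25 above WT Tconv in NIKtg Tconv and 2.25 above it in WT Treg. Ccl1, the ligand of CCR8, measured 6.52 and 7.44 on the NIKtg Tconv arrays, against 6.66 and 7.10 on the WT Treg arrays and 4.54 and 5.00 on the WT Tconv arrays. Its receptor did not follow, since Ccr8 was detected on neither NIKtg Tconv array, at 4.57 and 4.47, against 6.65 and 6.71 on the WT Treg arrays, at least 2.20-fold lower in NIKtg Tconv (adjusted p 2.4e-05). Hk2, the first enzyme of glycolysis in activated cells, measured 7.66 and 7.36 on the NIKtg Tconv arrays, against 7.86 and 8.00 on the WT Treg arrays and 6.52 and 5.83 on the WT Tconv arrays. Cxcr4, a homing receptor, measured 9.81 and 9.84 on the NIKtg Tconv arrays, against 9.69 and 9.42 on the WT Treg arrays and 8.54 and 8.41 on the WT Tconv arrays. The intervals of Ccl1 and Il10 were no longer within 2-fold without any 1 of the 4 arrays, that of Dusp4 without either NIKtg Tconv array or WT Treg 1, and that of Hk2 without NIKtg Tconv 1 or either WT Treg array.

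Secreted factors were divided. Of 14 cytokines and chemokines 4 were higher in NIKtg Tconv and 4 lower. Ccl5, a chemokine stored by effector and memory T cells, measured 15.21 and 15.16 on the NIKtg Tconv arrays, against 11.84 and 12.10 on the WT Treg arrays and 11.77 and 12.93 on the WT Tconv arrays (3.22 ± 0.34, adjusted p 0.00056). Ccl4, an inflammatory chemokine, measured 12.53 and 12.23 on the NIKtg Tconv arrays, against 8.19 and 8.87 on the WT Treg arrays and 7.44 and 7.98 on the WT Tconv arrays (3.85 ± 0.25, adjusted p 5.8e-05). Ccl3, its neighbour in function, measured 9.49 and 9.11 on the NIKtg Tconv arrays and was not detected on either WT Treg array, at least 13.1-fold higher in NIKtg Tconv (adjusted p 8.6e-05). In Ccl3 and Ccl4 the WT Tconv arrays were as low as or lower than those of WT Treg. Xcl1, a chemokine of cytotoxic cells, measured 10.67 and 10.28 on the NIKtg Tconv arrays, against 6.35 and 6.14 on the WT Treg arrays and 8.57 and 9.91 on the WT Tconv arrays (4.22 ± 0.37, adjusted p 0.00024).

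Lower in NIKtg Tconv were Csf1, Cxcl10, Lta and Tnf. Csf1, the macrophage growth factor, was detected on neither NIKtg Tconv array, at 5.01 and 4.84, and measured 7.58 and 7.91 on the WT Treg arrays, at least 4.61-fold lower in NIKtg Tconv (adjusted p 5.8e-05). Cxcl10, a chemokine induced by interferon, measured 6.35 and 5.66 on the NIKtg Tconv arrays, against 7.38 and 7.41 on the WT Treg arrays and 5.01 and 4.68 on the WT Tconv arrays (-1.38 ± 0.23, adjusted p 0.0049). Of the 4 lower calls 2 were left without NIKtg Tconv 1, and likewise without WT Treg 2. Csf2 was below detection on all arrays of NIKtg Tconv and WT Treg, at 4.58 and 4.56 against 4.71 and 4.98, while WT Tconv measured 5.97 and 6.90.

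Of 14 genes of granzymes, cytotoxic granules and killer receptors, 8 were higher in NIKtg Tconv and 0 were lower, with a median difference of 1.07. Gzmk, which encodes granzyme K, measured 12.29 and 11.66 on the NIKtg Tconv arrays and was detected on neither WT Treg array, at 4.95 and 5.05, at least 83.4-fold higher in NIKtg Tconv (adjusted p 1.8e-05). Gzmm, granzyme M, measured 12.39 and 11.99 on the NIKtg Tconv arrays, against 7.04 and 7.03 on the WT Treg arrays and 6.77 and 6.88 on the WT Tconv arrays (5.15 ± 0.30, adjusted p 3.4e-05). Nkg7, a granule membrane protein, measured 13.77 and 13.36 on the NIKtg Tconv arrays, against 9.54 and 9.66 on the WT Treg arrays and 10.53 and 11.72 on the WT Tconv arrays (3.97 ± 0.38, adjusted p 0.00035). WT Tconv was low with WT Treg in Gzmk and Gzmm, where Gzmk measured 5.38 and 5.67, and lay between the groups in Nkg7. Ctla2a, a protease inhibitor, was at least 1.52-fold higher in NIKtg Tconv (adjusted p 4e-05).

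Ctsw, a cathepsin of cytotoxic cells, and Serpinb6b, a serpin, were higher by 1.34 (adjusted p 0.0109) and 0.81 (adjusted p 0.0106), and both calls were lost without NIKtg Tconv 1 and without WT Treg 2. Prf1, the pore-forming perforin, measured 11.81 and 11.71 on the NIKtg Tconv arrays, against 11.37 and 11.58 on the WT Treg arrays and 11.87 and 11.85 on the WT Tconv arrays (0.28, interval 0.03 to 0.54), but its other probe gave a difference of 3.39, so the 2 probes disagree. Srgn, the proteoglycan of granules, measured 12.57 and 12.54 on the NIKtg Tconv arrays, against 12.89 and 12.74 on the WT Treg arrays and 11.77 and 12.06 on the WT Tconv arrays (interval -0.56 to 0.03). Klrb1c, the NK receptor NK1.1, was below detection on all 4 arrays, while WT Tconv measured 7.75 and 8.66. Cytotoxic cells of other lineages carry many of these genes, so their markers are given as well. Of the 4 tested CD8 and NK cell markers, Eomes and Xcl1 were higher in NIKtg Tconv, Klrb1c did not pass, and Cd8b1 was lower at 8.82 and 9.17 on the NIKtg Tconv arrays against 9.69 and 9.62 on the WT Treg arrays (-0.66, adjusted p 0.0268). The Cd8b1 call was lost without NIKtg Tconv 1, without either WT Treg array, after median centring and for the mean of its kept probes. Cd8a, Ncr1, Klra4, Klri1, Klri2 and Gzma did not reach detection on 2 arrays of the series. The summed intensity of the 4 markers was 7198 to 8359 on the NIKtg Tconv arrays and 967.9 to 1012.5 on the WT Treg arrays. On the WT Tconv arrays it was 2117.5 to 2538.2. These sums include Eomes and Xcl1 themselves.

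**Figure D5:**
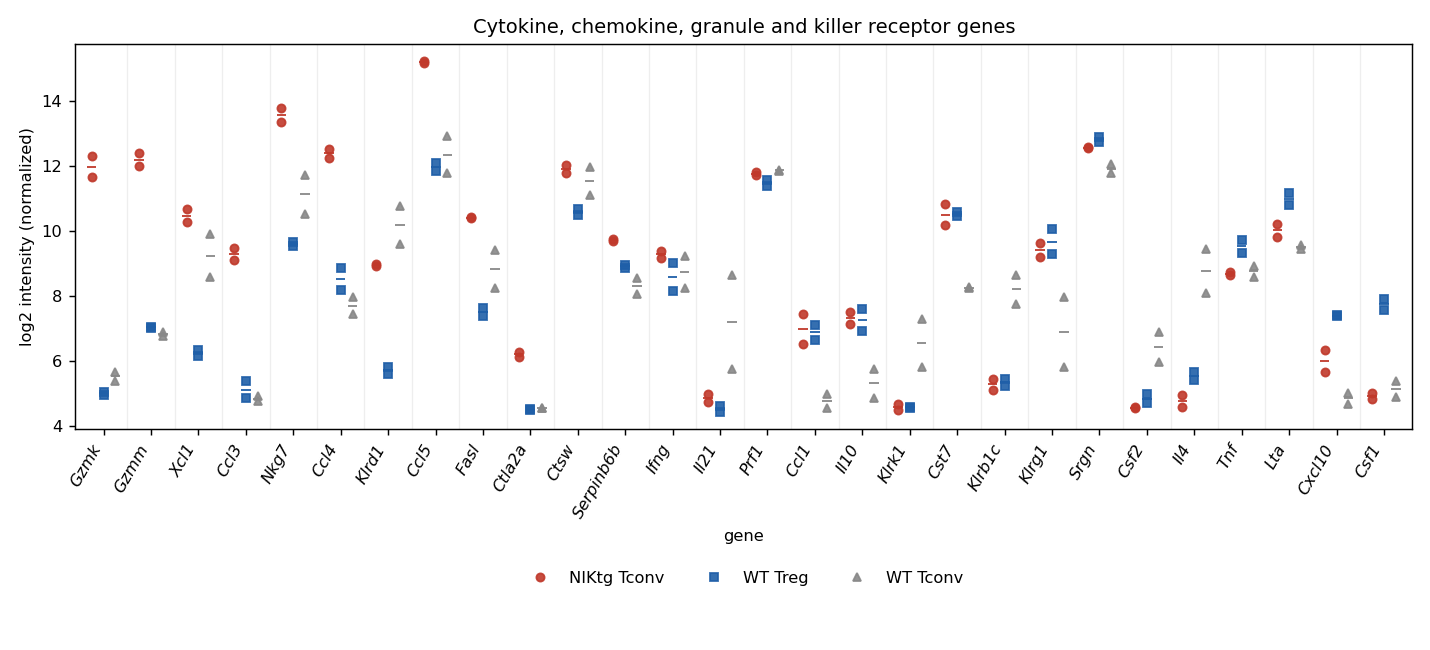
Normalized log2 intensity (y axis) of the tested cytokine, chemokine, granule and killer receptor genes (x axis, ordered by the difference between NIKtg Tconv and WT Treg). Each point is 1 of 2 arrays per group, with NIKtg Tconv in red circles, WT Treg in blue squares and WT Tconv in grey triangles, and short lines mark group means. Gzmk and Gzmm stand near 12 in NIKtg Tconv only, while Csf1 at the right end stands at 7.58 and 7.91 in WT Treg.

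Receptors for homing and adhesion were higher and lower in equal number, 6 and 6 of 19. Cxcr5, the receptor that guides cells to B cell follicles, measured 12.76 and 12.48 on the NIKtg Tconv arrays, against 11.47 and 11.38 on the WT Treg arrays and 9.55 and 9.24 on the WT Tconv arrays (1.20 ± 0.14, adjusted p 0.001). Gpr183, a receptor for oxysterols that positions lymphocytes, measured 12.13 and 11.91 on the NIKtg Tconv arrays, against 10.49 and 10.68 on the WT Treg arrays and 11.06 and 10.88 on the WT Tconv arrays (1.43 ± 0.13, adjusted p 0.00028). Ccr6, a receptor of mucosal homing, measured 6.61 and 7.12 on the NIKtg Tconv arrays, against 9.94 and 9.90 on the WT Treg arrays and 7.89 and 8.55 on the WT Tconv arrays (-3.05 ± 0.24, adjusted p 0.00012). Cxcr5 was above WT Tconv in both groups, whereas Ccr6 in NIKtg Tconv lay below both others. Itgb7, an integrin chain of gut homing, measured 11.74 and 11.91 on the NIKtg Tconv arrays and 12.68 and 12.67 on the WT Treg arrays (-0.85 ± 0.11, adjusted p 0.0017). Cd44, the activation marker and hyaluronan receptor, measured 10.06 and 9.78 on the NIKtg Tconv arrays, 9.91 and 10.07 on the WT Treg arrays and 9.76 and 10.16 on the WT Tconv arrays (interval -0.45 to 0.31). The count of higher genes was 2 without NIKtg Tconv 1, 3 without WT Treg 1 and 2 without WT Treg 2.

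Cytoskeletal and calcium-binding genes of effector cells were higher in NIKtg Tconv in 9 of 19 cases and lower in 1. Anxa2, a membrane-binding annexin, measured 12.95 and 12.72 on the NIKtg Tconv arrays, against 10.71 and 10.40 on the WT Treg arrays and 11.04 and 11.07 on the WT Tconv arrays (2.28 ± 0.14, adjusted p 4.2e-05). Anxa6, of the same family, measured 12.59 and 12.42 on the NIKtg Tconv arrays, against 11.57 and 11.65 on the WT Treg arrays (0.90 ± 0.11, adjusted p 0.0013). Emp1, an epithelial membrane protein, measured 8.14 and 8.36 on the NIKtg Tconv arrays, against 5.06 and 6.29 on the WT Treg arrays, of which 1 was detected, and 8.18 and 8.94 on the WT Tconv arrays (2.58 ± 0.40, adjusted p 0.0035). These 3 kept their calls in every alternative in which they were tested, whereas that of S100a11, a calcium-binding protein (0.65, adjusted p 0.0103), was lost without NIKtg Tconv 1 or either WT Treg array. The count of higher genes was 3 without NIKtg Tconv 1, 4 without WT Treg 1 and 3 without WT Treg 2, and the 1 lower gene, Plp2, was lost without NIKtg Tconv 2 and without WT Treg 2.

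Of 18 interleukin and interferon receptor chains, 4 were higher in NIKtg Tconv and 6 lower. Il7r, the receptor chain of resting and memory T cells that Treg hold low, measured 13.81 and 13.78 on the NIKtg Tconv arrays, against 12.11 and 12.36 on the WT Treg arrays and 13.37 and 13.57 on the WT Tconv arrays (1.56 ± 0.12, adjusted p 0.00013). Il10ra, the IL-10 receptor chain that binds the cytokine, measured 11.26 and 11.04 on the NIKtg Tconv arrays, against 10.23 and 10.50 on the WT Treg arrays and 8.40 and 8.65 on the WT Tconv arrays (0.79 ± 0.15, adjusted p 0.00898). Il10rb, the second chain, was alike at 10.40 and 10.24 on the NIKtg Tconv arrays and 10.08 and 10.15 on the WT Treg arrays, against 9.31 and 9.56 on the WT Tconv arrays. Both chains were above WT Tconv in both groups. For Il10rb, as for Il10 itself, likeness and a level above WT Tconv were asked for by the rule that named it. The Il10 interval did not stay within 2-fold without any 1 of the 4 arrays, and a link between these genes was not tested. Il6ra, the IL-6 receptor, measured 6.38 and 7.11 on the NIKtg Tconv arrays, against 8.42 and 8.13 on the WT Treg arrays and 8.37 and 8.44 on the WT Tconv arrays (-1.53 ± 0.27, adjusted p 0.0062). Il18r1, a chain of the IL-18 receptor, measured 9.54 and 10.03 on the NIKtg Tconv arrays, against 10.91 and 11.11 on the WT Treg arrays (-1.22 ± 0.21, adjusted p 0.0056), while its partner Il18rap was higher by 0.73 ± 0.21 (adjusted p 0.0472). The Il18rap call was lost without any 1 of the 4 arrays and that of Il10ra without NIKtg Tconv 1 or WT Treg 1. That of Il18rap was also lost without either NIKtg Treg array, without a detection filter and with the replicate number as a block. Without WT Treg 2 the list held 3 lower genes, and without NIKtg Tconv 1 or either WT Treg array it held 2 higher ones.

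Genes of naive and resting T cells were divided, with 5 higher and 5 lower of 20. Dapl1, a marker of naive T cells, measured 9.44 and 9.87 on the NIKtg Tconv arrays, against 7.10 and 7.07 on the WT Treg arrays and 10.54 and 10.60 on the WT Tconv arrays (2.57 ± 0.17, adjusted p 5.8e-05). Tob1, an inhibitor of proliferation, measured 8.62 and 8.60 on the NIKtg Tconv arrays, against 7.73 and 8.01 on the WT Treg arrays and 8.83 and 8.87 on the WT Tconv arrays (0.74 ± 0.12, adjusted p 0.0051). Foxo1, a factor of quiescence and homing, measured 9.24 and 9.43 on the NIKtg Tconv arrays, against 10.41 and 10.10 on the WT Treg arrays and 10.78 and 10.59 on the WT Tconv arrays (-0.92 ± 0.14, adjusted p 0.0033). In each of these the WT Tconv arrays were the highest. Actn1, an actin crosslinker of naive cells, was alike and low in both groups, at 11.07 and 11.62 on the NIKtg Tconv arrays and 11.59 and 11.28 on the WT Treg arrays, against 13.02 and 12.88 on the WT Tconv arrays. Without NIKtg Tconv 2, and likewise without WT Treg 2, 3 genes were higher, and 2 were lower without WT Treg 1.

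Proliferation genes were higher in NIKtg Tconv in 9 of 20 cases and lower in 0, with a median difference of 0.53 and only 2 genes more than 2-fold higher. Birc5, the mitotic inhibitor of apoptosis survivin, measured 8.14 on both NIKtg Tconv arrays, against 6.82 and 6.94 on the WT Treg arrays and 6.97 and 7.28 on the WT Tconv arrays (1.26 ± 0.16, adjusted p 0.0012). Cdk1, the kinase of mitotic entry, measured 7.48 and 7.45 on the NIKtg Tconv arrays, against 6.34 and 6.46 on the WT Treg arrays and 5.47 and 5.99 on the WT Tconv arrays (1.06 ± 0.17, adjusted p 0.0037). Top2a, a topoisomerase of dividing cells, measured 8.57 and 8.58 on the NIKtg Tconv arrays, against 7.52 and 7.67 on the WT Treg arrays (0.98 ± 0.15, adjusted p 0.0029). In these 3 genes, named because they were called higher, both NIKtg Tconv arrays lay above both WT Treg arrays, as in 32.2% of all genes. The replication genes Mcm6 (interval -0.44 to 0.13, but 0.83 at 1 of its other probes), Mcm5 (-0.10 to 0.43) and Pcna (-0.27 to 0.37) did not pass and had intervals within 2-fold. The count of higher genes was 5 without NIKtg Tconv 1, 5 without WT Treg 1 and 4 without WT Treg 2.

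Of 15 glycolysis genes, 1 was higher in NIKtg Tconv and 3 were lower. The interval lay within 2-fold for 12, near the 82.3% of all genes. Gapdh measured 13.43 and 13.57 on the NIKtg Tconv arrays, 13.43 on both WT Treg arrays and 13.20 and 13.33 on the WT Tconv arrays. Pfkp, the platelet form of phosphofructokinase, measured 10.21 and 9.74 on the NIKtg Tconv arrays, against 9.13 and 8.69 on the WT Treg arrays and 8.27 and 8.43 on the WT Tconv arrays (1.07 ± 0.24, adjusted p 0.0192). Tpi1, triose-phosphate isomerase, measured 9.68 and 9.75 on the NIKtg Tconv arrays, against 10.58 and 10.52 on the WT Treg arrays (-0.83 ± 0.10, adjusted p 0.00092), with differences of -0.78 and 0.35 at its other probes. The Pfkp call was lost without NIKtg Tconv 1 and without WT Treg 2, and 1 lower gene was left without NIKtg Tconv 1 or either WT Treg array.

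Outside the lists, the genes with the largest differences were named by rank. Among the 15 largest increases, Esm1, a secreted proteoglycan, measured 11.25 and 10.68 on the NIKtg Tconv arrays and was detected on neither WT Treg array, at least 41.4-fold higher in NIKtg Tconv (adjusted p 0.00035). Kcnip3, a calcium-binding regulator of channels and transcription, measured 10.30 and 9.87 on the NIKtg Tconv arrays and was at least 22.5-fold higher. Ncald, a neuronal calcium sensor, measured 9.24 and 9.31 on the NIKtg Tconv arrays and was at least 12.8-fold higher. Both calcium-binding genes were undetected in WT Treg and in WT Tconv. Crtam, an adhesion molecule of cytotoxic CD4 T cells, measured 9.59 and 9.09 on the NIKtg Tconv arrays, against 5.26 and 4.76 on the WT Treg arrays, at least 13.4-fold higher. St3gal6, a sialyltransferase, measured 12.47 and 12.33 on the NIKtg Tconv arrays, against 7.51 and 7.49 on the WT Treg arrays and 9.92 and 10.65 on the WT Tconv arrays (4.90 ± 0.21, adjusted p 1.7e-05). Lypd6b measured 9.27 and 9.53 on the NIKtg Tconv arrays and 9.27 and 9.06 on the WT Tconv arrays, against undetected signals on the WT Treg arrays, at least 14.0-fold higher in NIKtg Tconv. Lypd6b is thus a gene that both Tconv groups had and WT Treg lacked at this detection limit. Ier3 (5.19 ± 0.40), an immediate early gene, Itgad (4.38 ± 0.54), an integrin chain, and Serpina12 (4.66 ± 0.36, but 1.69 at its other probe) completed the increases, with Ier3 and Itgad detected on 1 of the 2 WT Treg arrays.

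Among the 15 largest decreases, Gbp2b, an interferon-induced GTPase, was detected on neither NIKtg Tconv array, at 4.62 and 4.55, and measured 9.62 and 9.97 on the WT Treg arrays, at least 19.0-fold lower in NIKtg Tconv (adjusted p 7.9e-06). Clec2e, a lectin-like gene, measured 8.83 and 9.05 on the WT Treg arrays and was at least 10.5-fold lower in NIKtg Tconv. Ncmap, a myelin-associated membrane protein gene, measured 8.88 and 8.92 on the WT Treg arrays and was at least 10.3-fold lower in NIKtg Tconv. Clec2e and Gbp2b were low in WT Tconv as well, at 5.52 and 5.32 and at 5.25 and 5.22. Hmgn3, a nucleosome-binding protein, measured 5.11 and 5.73 on the NIKtg Tconv arrays, of which 1 was detected, against 9.87 and 9.55 on the WT Treg arrays (-4.30 ± 0.35, adjusted p 0.00016). The predicted gene Gm4956 measured 8.34 and 8.63 on the NIKtg Tconv arrays, against 12.48 and 12.60 on the WT Treg arrays (-4.05 ± 0.33). Across the genome, 160 genes were detected on both NIKtg Tconv arrays and neither WT Treg array (2.02%), and 208 on both WT Treg arrays and neither NIKtg Tconv array (2.62%).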

How the data were processed

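Gene expression was measured on Illumina mouse arrays in 8 samples of 4 groups with 2 arrays each. Per the file headers, the authors deposited unnormalized probe intensities with a detection p-value for every probe and array. A second deposited table holds the same probes as linear intensities with medians of 118.6 to 118.8 on every array; no source used here gives its normalization, and GenomeStudio 2010.1 is the only tool in the submitters' processing notes. The log2 values here were computed from the deposited intensities with limma 3.58.1 in R 4.3.3. Background was corrected with nec, using negative controls inferred from the detection p-values (798 control probes) and an offset of 16, and arrays were then quantile normalized. Of 25697 probes, 23978 had 1 gene symbol, 0 had several and 1719 had none in the platform table. Kept were 11526 probes with a detection p-value under 0.01 on at least 2 arrays, of which 10819 were named, and the brightest probe stood for each of the 2087 genes with several. An intensity is bounded below by background, and precision is limited by having 2 arrays per group.

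All 8 arrays entered 1 fit with 1 coefficient per group (lmFit and eBayes, two-sided, 4 residual and 3.55 prior degrees of freedom), adjusted by Benjamini-Hochberg over 7926 genes. 95% intervals are unadjusted. No 2 arrays held identical values (0 pairs). The replicate deviations of NIKtg Tconv and WT Treg were not correlated over genes (-0.014, and -0.019 to 0.143 over all pairs of groups). The labels do not say whether arrays with the same replicate number shared an animal or a sort, and this correlation cannot exclude it.

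The comparison, the 15 activation lists and the 6 marker lists were chosen with earlier results of these data known. Named are Map3k14, Foxp3, Thy1 and Cd4, the 15 largest increases and 15 largest decreases whose arrays did not overlap, and per list up to 4 genes called in each direction by smallest adjusted p, up to 4 with an interval within 2-fold by highest level, and up to 4 such genes that lay most above WT Tconv. Marker lists are given as a whole. The fit was tested on simulated data. Alternatives covered background, scaling, filters, probe choice, the fit and single arrays, and 2 of the 20 were chosen after seeing the data. Figures were drawn with matplotlib 3.10.9 and tables joined with pandas 2.3.3.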

Additional observations from a re-analysis of the deposited data

How the results depend on the processing

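Against 1625 calls in all, the number of genes called ran from 1337 to 1966 over the alternatives that kept all 8 arrays or the 4 compared, and from 838 without NIKtg Tconv 1 to 1739 without either NIKtg Treg array (1065 without NIKtg Tconv 2, 983 without WT Treg 1 and 890 without WT Treg 2). Higher calls ran from 343 to 817 and lower calls from 495 to 922 without single arrays. Genes at least 2-fold apart ran from 526 to 617 without single arrays (191 to 235 higher, 335 to 384 lower), and genes with an interval within 2-fold from 5934 to 6662. Without background correction 310 genes were at least 2-fold apart (120 higher, 190 lower), 317 were so in the values that the authors had normalized (121 higher, 196 lower), and among the 6405 genes with a probe detected on all 8 arrays 313 were (109 higher, 204 lower), against 606. An offset of 50 left 149 genes at least 2-fold higher. Median centring over all probes gave 534 lower calls and 352 genes at least 2-fold higher, and the same centring over the kept probes, chosen after seeing the data, left 44.1% of calls higher. Without a detection filter 15043 of 16593 genes had an interval within 2-fold. Requiring every kept probe to pass in 1 direction, also chosen after seeing the data, left 1337 calls. The causes of these shifts were not tested beyond the smaller or larger number of genes that a filter leaves.

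With the replicate number as a block, 1573 genes were called, 607 of them at least 2-fold apart, and 6566 had an interval within 2-fold. Among the 177 named genes the block ended 3 calls and added 1. No named gene's called difference changed sign in any of these alternatives. Single arrays ended 16 to 23 of the named calls when 1 of the 4 compared arrays was left out, which left a group with 1 array that was assumed to vary like the other groups. The chip could not be used as a block, because the headers name no chip. Probes near background bound the size of a difference, and a gene below detection is not shown to be absent.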

Other observations

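Beyond the lists, several genes lay well above WT Tconv in both NIKtg Tconv and WT Treg, with an interval of their difference within 2-fold. They were chosen after their values were seen, by their distance from WT Tconv, and both distances share the WT Tconv arrays. Asns, which encodes asparagine synthetase, measured 8.36 and 8.02 on the NIKtg Tconv arrays, 7.76 and 7.77 on the WT Treg arrays and 5.41 and 5.68 on the WT Tconv arrays, where it was not detected. Plscr1, a phospholipid scramblase induced by interferon, measured 10.03 and 9.80 on the NIKtg Tconv arrays, 9.31 and 9.55 on the WT Treg arrays and 7.33 and 7.49 on the WT Tconv arrays, and it was called higher in NIKtg Tconv than in WT Treg (0.49 ± 0.13, limma adjusted p 0.036). Bmp7, a secreted morphogen of the TGF-beta superfamily, measured 9.28 and 9.23 on the NIKtg Tconv arrays, 9.15 and 9.42 on the WT Treg arrays and 7.18 and 7.59 on the WT Tconv arrays. Ybx3, a cold-shock domain protein that binds RNA, measured 9.84 and 9.68 on the NIKtg Tconv arrays, 10.26 and 10.06 on the WT Treg arrays and 7.98 and 7.65 on the WT Tconv arrays.

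In the other direction, Aqp9, a channel for water and glycerol, was not detected on the NIKtg Tconv arrays, at 4.86 and 4.97, or on the WT Treg arrays, at 4.73 and 4.74, and measured 8.64 and 9.85 on the WT Tconv arrays. Cnn3, an actin-binding calponin, measured 5.72 and 6.28 on the NIKtg Tconv arrays, 5.91 and 5.82 on the WT Treg arrays and 8.05 and 8.16 on the WT Tconv arrays. Snn, which encodes stannin, measured 7.19 and 8.02 on the NIKtg Tconv arrays, 8.01 and 7.69 on the WT Treg arrays and 9.64 and 9.71 on the WT Tconv arrays.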
